A study of Arabidopsis thaliana with 12 samples.

Results

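A group of 86 Arabidopsis thaliana probe sets marks the genes that stood higher in iron-deficient shoots while iron-deficient roots stayed near their control level. They were chosen by their wild-type values. The mean of the 2 shoot arrays without Fe had to exceed the mean of the 2 shoot arrays with Fe by 1 or more on the log2 scale, which is a doubling. Both shoot arrays without Fe also had to lie above both shoot arrays with Fe, and the same difference in roots had to lie between -0.45 and 0.45. Of 22746 probe sets 89 met these limits, 1 of them for mitochondrial genes was left out as an organelle transcript, and 2 were left out by name. The 86 members comprise 32 probe sets with 1 annotated gene, 2 with several genes, and 52 that are unnamed here, so what follows describes named genes for 37.2% of the group.

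Plants short of iron turn on a regulatory cascade of bHLH transcription factors and small signalling peptides in both organs, and roots add the machinery of iron uptake. Shoots hold most of the iron of a seedling, in chloroplasts and mitochondria, and an iron-poor leaf also adjusts photosynthesis, carbohydrate use and redox chemistry. The lists of iron regulators and transporters used here hold no named member. Only 10 of 20 and 2 of 31 of their loci have a probe set named for them alone. The other loci could not be looked for among the unnamed members. The named members include genes of sugar transport and starch synthesis, light and flavonoid regulation, hormone signalling, glutaredoxins, oxidoreductases and genes of little known function. These headings were chosen after the annotation was seen, and some rest on a single gene. Their shares were not compared with those over all probe sets.

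Total RNA of whole roots and whole shoots was hybridised to 12 Affymetrix arrays, with 2 labelled as biological replicates in each of 6 groups. Wild-type Col-0 seedlings and irt1-2 (pam42) mutants, which lack the main root transporter for ferrous iron, were raised on control medium for 10 days. They then spent 5 days on agar washed free of metals and were harvested at an age of 15 days, 3 h after dawn. Wild type was grown with 10 µM Fe-HBED (an iron chelate) or without added Fe, and irt1 only with Fe, so no group combines the mutation with a medium lacking Fe. All values are log2 expression values made by RMA and rounded to 1 decimal, and a mean of 2 arrays moves in steps of 0.05. Each plant organ is a mixture of cell types, so more transcript per cell and more cells of a type cannot be told apart.

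Of 5 organ markers measured by a probe set named for them alone, 4 stood higher in the organ they were listed for, and 1 did not. RCA, the activase of Rubisco, had group means of 12.55 to 12.65 in shoots and of 6.55 to 7.5 in roots. Of 4 measured loci listed as root markers, AT3G01190, AT4G15390 and AT5G66390 had group means of 9.3 to 11.9 in roots and of 2.9 to 4.85 in shoots, while AT3G05730 read 11.4 to 11.65 in shoots and 2.65 to 2.75 in roots, against its place on the list. Across all probe sets, the SD of replicate 1 minus replicate 2 was 0.293 for wild-type shoots supplied with Fe and 0.29 for irt1 shoots, and it lay between 0.188 and 0.22 elsewhere. For irt1 shoot replicate 1 the GAPDH integrity controls gave a 3' minus 5' difference of 1.6, and the other 11 arrays gave 0.7 to 1. Counts of members called in irt1 shoots, and the medians given with them, are therefore also given without that array. The same holds for named calls, except those of irt1 shoots against irt1 roots.

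In every shoot group most members stood higher on replicate 1 than on replicate 2. The rule did not compare replicates, but the wild-type shoot arrays chose the members. Their counts are therefore not independent of the rule, which did not use the irt1 arrays. Replicate 1 was the higher array for 64 of 86 members in wild-type shoots with Fe, for 63 without Fe and for 65 in irt1. Over all probe sets replicate 1 was higher for 40.9%, 45.4% and 47.1%. The median difference between the 2 arrays was 0.3, 0.3 and 0.2 in members and 0 over all probe sets. In roots the same count was 41, 35 and 36 of 86, with a median of 0. The part of this replicate difference in the results below was not tested.

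**Figure D1:**
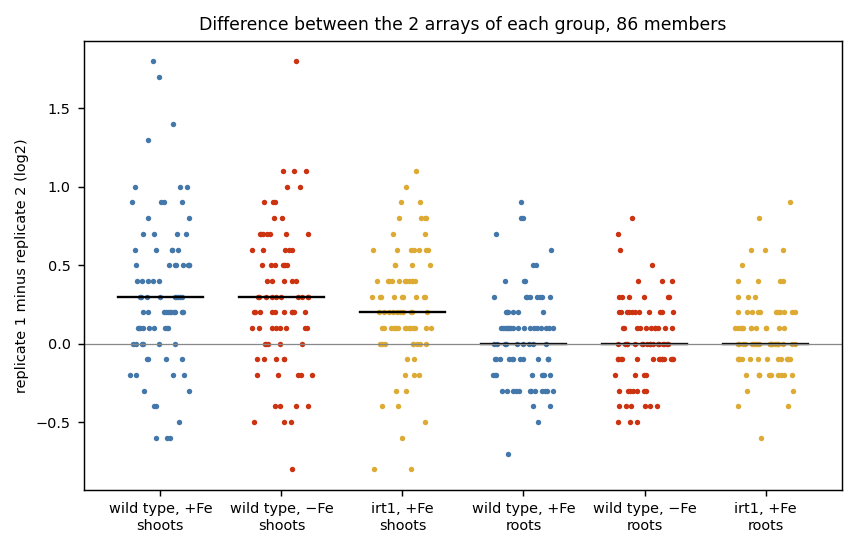
Each point is 1 of the 86 members, and the vertical axis gives its log2 value on replicate 1 minus that on replicate 2 in the group named on the horizontal axis; black bars are medians. The 3 shoot groups have medians of 0.3, 0.3 and 0.2, and the 3 root groups medians of 0.

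The wild-type shoot differences that chose the members are a description and carry no test. They ran from 1 to 3.15 with a median of 1.27, and 58 members had a difference under 1.5 while 8 reached 2 or more. The 2 largest belonged to unnamed probe sets. Probe set 266752_at measured 4.8 and 4.2 in shoots with Fe and 8.1 and 7.2 without Fe, and 246913_at measured 3.7 and 4 with Fe and 6.9 and 7 without. Among named genes, AT2G14230, annotated as a pseudogene, was furthest apart, at 2.4 on both arrays with Fe and at 4.3 and 5.1 without. AT3G21600, a gene of little known function, read 5.3 and 5.2 with Fe and 7.5 and 7.3 without.

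The group is sensitive to where its limits lie. With the shoot limit at 0.8 the rule finds 204 probe sets, and with a limit of 1.2 it finds 51. Exactly at the limit lay 8 members, among them AT1G63840, AT1G54120 and RR16, while 18 probe sets fell short at 0.95, among them MT1C, AT3G10720 and DI21. On the root side AT3G03270, AT3G62960 and ATMPK13 were just inside at 0.4, and AT5G43450, AT5G56350 and AT1G24095 just outside at 0.5. At the lower root limit AT2G31730 was inside at -0.35 and BGLU47 outside at -0.5. Root differences of the members had a median of 0.075 and ran from -0.4 to 0.4, with 50 above and 28 below 0. Root means of members with Fe ran from 2.35 to 10.1, and the lowest value in the data was 1.9. For members with root values near that floor, a small root difference does not show that roots lack a response.

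Carbohydrate handling was represented by SAG29 and APL4. SAG29 encodes the sucrose transporter SWEET15, which is known for its rise in ageing leaves. It read 4.3 and 4.7 in shoots with Fe, 7.1 and 6.2 without Fe, and 5.9 and 5.3 in irt1, so the 3 shoot groups did not overlap. In roots it stayed between 4.1 and 4.7 on all 6 arrays. APL4 encodes a large subunit of ADP-glucose pyrophosphorylase, the enzyme of the first committed step of starch synthesis. Its shoot values were 4.4 and 4 with Fe, 6 and 5.5 without Fe, and 4.6 and 4.5 in irt1, and its root values lay between 2.8 and 3. Both irt1 arrays of APL4 were thus just above the arrays with Fe and well below those without.

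Light and flavonoid regulation was represented by HYH and CHIL. HYH is the bZIP factor homologous to HY5 that promotes responses to light. It measured 4.4 and 3.1 in shoots with Fe, 5.3 and 4.5 without Fe, and 5.2 and 4.6 in irt1. Its 2 arrays with Fe lay 1.3 apart (SD 0.92), so its place in the group rests on a gap of 0.1 between the nearest arrays. CHIL encodes a chalcone isomerase-like protein that raises flavonoid output, and it read 6.7 and 6.2 with Fe, 8.3 and 7.9 without Fe, and 7.9 and 7.2 in irt1. Root values of CHIL were high on every medium, from 7.6 to 8.8, and replicate 1 was the higher array in all 6 groups for both HYH and CHIL.

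Regulators with other inputs followed. bZIP44, of the bZIP group whose translation responds to sucrose, measured 6.1 and 5.7 in shoots with Fe, 7.2 and 7 without Fe, and 6.9 and 6.6 in irt1. RR16, a type-A response regulator of cytokinin signalling, read 4.7 and 4.2 with Fe, 5.6 and 5.3 without, and 4.6 and 4.5 in irt1, where it stayed at the level with Fe. The mitogen-activated protein kinase gene ATMPK13 read 4.6 and 4.2 with Fe, 5.7 and 5.2 without, and 4.9 on both irt1 arrays. Of 2 loci of the bHLH family, AT2G31730 read 6.7 and 6.5 with Fe, 7.9 and 7.8 without, and 7.7 and 7.3 in irt1. The other, AT5G50915, read 6 and 5.1 with Fe, 6.9 and 6.4 without, and 6.8 and 6 in irt1, so that its irt1 arrays overlapped both wild-type groups.

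Several named members encode redox proteins or oxidoreductases, a grouping made after their annotation was seen. AT1G03020 and AT3G62960 belong to the plant-specific CC-type glutaredoxins, small thiol proteins that pair with transcription factors. AT1G03020 measured 3.5 and 3.3 in shoots with Fe, 5.1 on both arrays without Fe, and 4.8 and 4.5 in irt1, and between 3 and 3.2 in roots. AT3G62960 read 7.1 and 6.6 with Fe, 8.2 and 7.9 without, and 7.7 and 7.2 in irt1. AT5G01670, of the aldo-keto reductase family, read 5.4 and 5.3 with Fe, 6.4 and 6.6 without, and 6.4 and 6.2 in irt1. AT4G33420, a class III peroxidase, read 5.4 and 5.1, 6.5 and 6.2, and 6.2 and 6.1 in the same order. In AT1G14120, of the oxygenases that need iron and oxoglutarate, the arrays were further apart, at 4.5 and 3.5 with Fe, 5.3 and 4.8 without, and 4.8 and 4.7 in irt1.

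Other named members cover stress and metabolism. The universal stress protein gene AT3G03270 measured 7 and 7.1 in shoots with Fe, 8.8 and 8.7 without Fe, and 8 and 7.9 in irt1, a step apart in each group. AT5G15950, for an S-adenosylmethionine decarboxylase of polyamine synthesis, read 6 and 5.8 with Fe, 7.1 and 7.3 without, and 6.7 and 6.3 in irt1. AT1G55360 read 8.1 and 8 with Fe, 9.4 on both arrays without, and 9.1 and 9 in irt1. By level, AT5G43460 (10.4 ± 0.14, SD, n = 2), AT3G51670, of the patellin lipid-binding family (9.7 ± 0.00), and AT1G55360 (9.4 ± 0.00) were the highest named members in shoots without Fe.

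The remaining named members have less in common. AT1G13610 measured 4 and 4.6 with Fe, 6.2 and 5.9 without Fe, and 6.5 and 5.5 in irt1. AT1G03990, of the long-chain alcohol oxidase family, read 3.6 and 4.2 with Fe, 5.3 and 5.1 without, and 4.9 and 4.4 in irt1. AT4G19430 read 3.8 and 3.3, 5.1 and 4.5, and 3.8 and 4.1 in that order, so its irt1 arrays reached into the range with Fe. AT5G62280, AT1G63530, AT1G54120 and AT2G47780 had differences of 1.00 to 1.10 in wild type and of 0.35 to 0.65 in irt1, and none of these 4 was called in irt1 shoots.

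**Figure D2:**
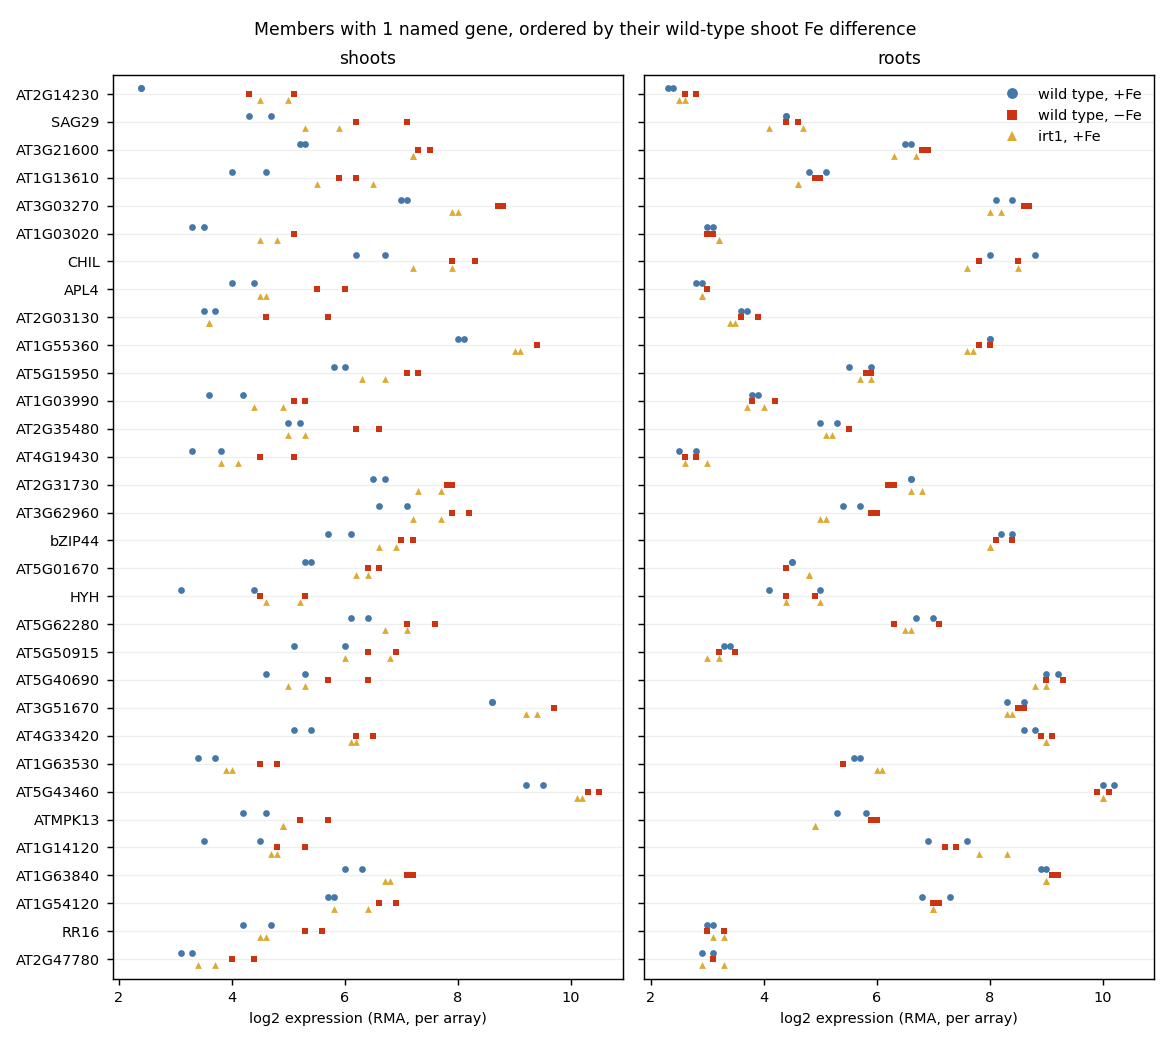
Each row is 1 of the 32 members with 1 named gene and each symbol 1 array, on a log2 scale, with shoots on the left and roots on the right; circles are wild type with Fe, squares wild type without Fe and triangles irt1 with Fe. In shoots the squares of every row lie to the right of the circles, as the rule requires, and triangles lie between or near them, from RR16 and AT2G35480 at the circles to AT2G14230 and HYH at the squares.

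The irt1 mutant was not part of the rule, so its shoots show how the same genes behave when iron is supplied but its uptake is impaired. Of the 86 members 39 rose in irt1 shoots against wild-type shoots with Fe, 0 fell and 47 were not called (limma, 12-array model, adjusted p under 0.05; 66 higher and 0 lower at an unadjusted p under 0.05). Over all probe sets 1.93% were called higher and 1.65% lower. The median log2 difference was 0.85 in members, with a range from 0 to 2.45, against 0 over all probe sets. This comparison shares the 2 wild-type arrays with Fe with the rule, which picked probe sets that were low on them, so the count is not independent of the choice of members. Both irt1 arrays lay above both wild-type arrays with Fe for 70 members (17.7% of all probe sets) and below them for 0 (13.8%). Without irt1 replicate 1 the members' median was 0.75, and the remaining irt1 array lay above both wild-type arrays for 75 members (27.3% of all probe sets).

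Among named members 13 of 32 rose in irt1 shoots, where 1.93% of all probe sets were called higher. The wild-type arrays with Fe in this comparison also chose the members, so the p-values below are not independent of the rule. AT3G21600 had a log2 difference of 1.95 ± 0.14 (SE; limma adjusted p = 9.28e-06), with both irt1 arrays at 7.2, and AT2G14230 one of 2.35 ± 0.23 (adjusted p = 0.000146). AT1G03020, the glutaredoxin gene, rose by 1.25 ± 0.12 (adjusted p = 0.000183), and AT1G13610, of the alpha/beta hydrolase family, by 1.70 ± 0.28 (adjusted p = 0.00685), although its irt1 arrays lay at 6.5 and 5.5. AT1G55360, AT5G01670, AT3G03270, AT2G31730, AT4G33420, bZIP44, AT5G43460, AT3G51670 and the RING finger gene AT1G63840 rose by 0.60 to 1.00. At the other end AT2G03130 and AT2G35480 had differences of 0.00 and 0.05, RR16 of 0.10, AT5G40690 of 0.20 and APL4 of 0.35, none of them called (adjusted p 0.296 to 1). HYH, CHIL and SAG29 had differences of 1.15 ± 0.44, 1.10 ± 0.37 and 1.10 ± 0.29 that did not pass (adjusted p = 0.184, 0.132 and 0.0657). Their SEs were above that of AT1G55360, whose difference of 1.00 had an SE of 0.11.

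The count in irt1 shoots rests on how the spread is estimated and on single arrays. The 39 members called compare with 3.57% of all probe sets called in either direction. Leaving out irt1 replicate 1 gave 20 members, where 1.31% of all probe sets were called, and leaving out wild-type replicate 2 gave 23, where 1.65% were. A fit to the 6 shoot arrays alone gave 6, where 0.352% of all probe sets were called. AT3G21600 and AT1G55360 kept their call under each of the 10 alternatives run. The filter on means under 4 left out AT2G14230 and AT1G03020, which had 9 alternatives each. Both of them, and AT1G13610, AT3G03270, AT2G31730 and AT5G01670, lost the call in the model of shoot arrays and in no other. The same model ended the calls of the remaining 5, and array weights ended those of bZIP44, AT3G51670 and AT1G63840. Without irt1 replicate 1 the calls of bZIP44, AT1G63840, AT4G33420 and AT5G43460 were lost, and without wild-type replicate 2 those of bZIP44, AT1G63840, AT4G33420 and AT3G51670.

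**Figure D3:**
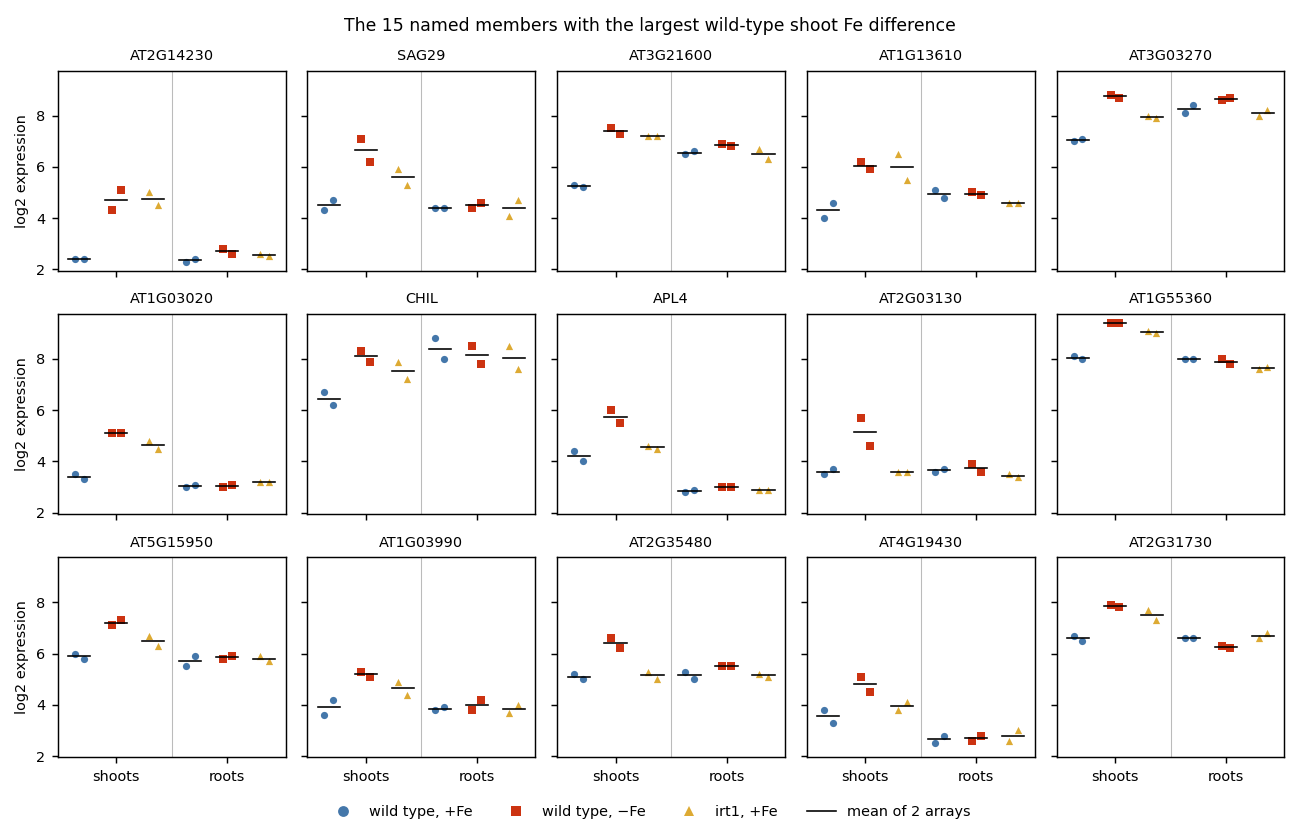
Log2 expression on each array for the 15 named members with the largest wild-type shoot difference, with shoots left and roots right of the grey line, symbols for the 3 plant groups and black bars for means of 2 arrays. irt1 shoots stand near the Fe-deficient level in AT2G14230 and AT3G21600, midway in SAG29 and AT3G03270, and at the Fe-supplied level in AT2G03130 and AT2G35480, while the 3 root means stay within 0.55 of each other in every panel.

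In irt1 roots few members were called, as was the case over all probe sets. Against wild-type roots with Fe, 0 of 86 rose and 1 fell (limma; 6 higher and 6 lower at an unadjusted p under 0.05), against 1.88% higher and 1.52% lower over all probe sets, 3.40% together. The one that fell was the unnamed 260143_at, by 0.60 (SE 0.14; adjusted p = 0.0419), which is named because of this call, and leaving out any of the 4 arrays ended it. The median difference was 0.00, the same as over all probe sets, and the range -0.75 to 0.80. At the ends of the named members were AT1G14120, at 7.6 and 6.9 in wild type and 8.3 and 7.8 in irt1 (difference 0.80, adjusted p = 0.252), and ATMPK13, at 5.8 and 5.3 in wild type and 4.9 on both irt1 arrays (difference -0.65, adjusted p = 0.117). Of 40 probe sets that were higher by 1 or more in both wild-type organs without Fe, 19 were called higher in irt1 roots and 27 in irt1 shoots. Both sets were chosen on wild-type root values that share arrays with this comparison, and the difference between the sets was not tested.

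The difference between the irt1 effects in the 2 organs was tested directly. For 23 of 86 members the effect was higher in shoots than in roots and for 0 it was lower (limma interaction; 53 and 0 at an unadjusted p under 0.05), where 0.870% and 1.13% of all probe sets were called. AT3G21600 had a difference between effects of 2.00 ± 0.19 (SE; adjusted p = 0.000305), AT1G55360 one of 1.35 ± 0.15 (adjusted p = 0.00094) and AT2G14230 one of 2.15 ± 0.32 (adjusted p = 0.00554). bZIP44, AT1G03020, AT3G03270, AT1G13610, AT5G43460 and AT3G51670 completed the 9 named members called. AT3G21600 and AT1G55360 kept this call under each of 14 alternatives. AT2G14230 kept it under each of 13, as the filter on means under 4 left it out. Of 14 alternatives AT3G51670 lost it under 9, bZIP44 and AT5G43460 under 7, AT1G13610 under 6 and AT3G03270 under 4, and AT1G03020 lost it under 2 of 13. Without irt1 shoot replicate 1 the calls of AT3G03270, bZIP44, AT3G51670 and AT5G43460 were lost, and the members' median fell from 0.80 to 0.70. Without 1 array the count ran from 8 (irt1 root replicate 1, with 0.783% of all probe sets called) to 27 (irt1 shoot replicate 2, with 2.88%), against 2.00% with all arrays. It was 12 without irt1 shoot replicate 1 (1.06%) or irt1 root replicate 2 (1.07%), 13 without wild-type shoot replicate 2 (1.3%), and 10 without wild-type root replicate 1 (0.818%) or 2 (0.787%) with Fe. In a model of the 4 groups compared it was 9, where 0.769% of all probe sets were called. The wild-type arrays with Fe of both organs are shared with the rule. Of the 40 probe sets higher in both wild-type organs without Fe, 13 were called higher and 0 lower. Their median of 0.80 equalled that of the members, so a larger irt1 effect in shoots was not particular to the members. Those 40 were also chosen on wild-type arrays.

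Levels in irt1 shoots were set beside those in wild-type shoots without Fe to ask how far the mutant reached. Of the 86 members 13 were lower in irt1 and 0 higher (limma; 46 lower and 2 higher at an unadjusted p under 0.05), where 0.286% and 0.123% of all probe sets were called, 0.409% in all. The median log2 difference was -0.45 in members and 0 over all probe sets. Both irt1 arrays lay below both wild-type arrays without Fe for 50 members (12.5% of all probe sets) and above them for 2 (13.1%). Without irt1 replicate 1 the members' median was -0.575. The members had been chosen as high on the wild-type arrays without Fe. This direction, and the p-values of the genes named next, are therefore not independent of the rule. Named genes called lower were APL4 (-1.20 ± 0.17 SE; adjusted p = 0.0114), AT2G35480 (-1.25 ± 0.16; adjusted p = 0.00807), AT2G03130 (-1.55 ± 0.26; adjusted p = 0.0327) and AT3G03270 (-0.80 ± 0.13; adjusted p = 0.0246). AT2G35480 read 5.2 and 5 in wild type with Fe, 6.6 and 6.2 without, and 5.3 and 5 in irt1, and AT2G03130 read 3.5 and 3.7, 5.7 and 4.6, and 3.6 on both irt1 arrays. The differences of HYH (0.00 ± 0.44), AT1G13610 (-0.05 ± 0.28) and AT2G14230 (0.05 ± 0.23) were near 0 with wide errors. The count was 3, 2 and 4 without irt1 replicate 1, irt1 replicate 2 and wild-type replicate 1 without Fe, where 0.211%, 0.224% and 0.0967% of all probe sets were called, and 0 when the 6 shoot arrays were fitted alone, where 0 probe sets of the whole array were called. The calls of APL4 and AT2G03130 were lost without either irt1 array or wild-type replicate 1 without Fe, that of AT2G35480 without irt1 replicate 2 or that wild-type array, and that of AT3G03270 without any of the 4 arrays.

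A response seen only in shoots did not mean expression only in shoots. This was tested in irt1, whose 4 arrays the rule did not use. The rule did bound the root difference in wild type, and a probe set with low signal in roots meets that limit more easily. The counts and p-values of this order are therefore not independent of the choice of members. Of the 86 members 47 were higher and 16 lower in irt1 shoots than in irt1 roots (limma, adjusted p under 0.05), where 24.1% of all probe sets were higher and 28.5% lower. The counts were 43 and 17 without irt1 shoot replicate 1, where 46.8% of all probe sets were called against 52.5% with it, and the members' median was then 0.65. Both shoot arrays lay above both root arrays for 55 members (33.3% of all probe sets) and below them for 18 (34.9%). Without that array the remaining shoot array lay above both root arrays for 57 members (38.2%) and below them for 24 (41.0%). The median difference was 0.80 in members and 0 over all probe sets, and the range ran from -4.05 (266752_at) to 5.65 (another unnamed probe set). Of the 40 probe sets higher in both wild-type organs without Fe, 22 were called higher and 9 lower, also with a median of 0.80. The lean towards shoots was thus not particular to the members. In wild-type roots without Fe the median level was 3.7 for the 47 members called higher and 8.125 for the 16 called lower. How far low root signal added to the 47 was not tested.

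Named genes lay at both ends of this order. On the shoot side were AT5G50915 (3.30 ± 0.30 SE; adjusted p = 1.41e-06), AT3G62960 (2.40 ± 0.20; adjusted p = 5.96e-07), AT2G14230 (2.20), APL4 (1.65) and AT5G01670 (1.5). On the root side were AT5G40690 (-3.75 ± 0.25; adjusted p = 8.7e-08), AT1G14120 (-3.30), AT4G33420 (-2.85 ± 0.14; adjusted p = 5.96e-09), AT1G63840 (-2.25) and AT1G63530 (-2.10). AT5G40690 measured 9 and 8.8 in irt1 roots and 5 and 5.3 in irt1 shoots, and in wild-type shoots without Fe it reached 6.4 and 5.7 against 9 and 9.3 in roots on that medium. Such members were root genes by level whose transcript was higher in the shoot without Fe.

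In wild type the order of the organs depended on the medium. With Fe, 38 members stood lower in shoots than in roots, 46 higher and 2 equal, and the median difference was 0.05. Without Fe the median was 1.33, and 17 of the 38 had passed the root level, 20 were still below it and 1 was equal. CHIL was among those that came close, with means of 6.45 and 8.10 in shoots with and without Fe against 8.40 and 8.15 in roots. AT3G21600, at 7.40 in shoots without Fe against 6.85 in roots, was among the 17. These counts follow in part from the rule, which sets the shoot difference at 1 or more.

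**Figure D4:**
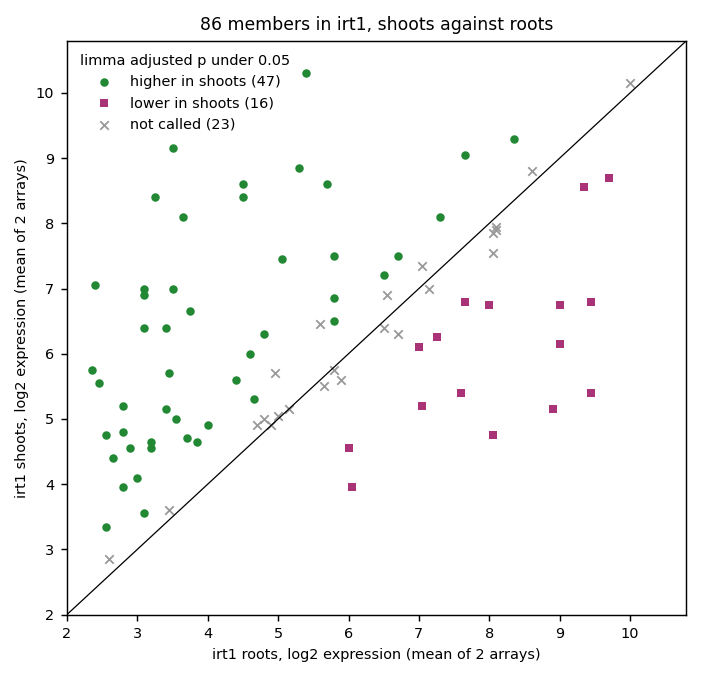
Each point is 1 of the 86 members, placed by its mean log2 level in irt1 roots (horizontal) and irt1 shoots (vertical), with the line of equal levels. Of the points 47 were called higher in shoots, 16 lower and 23 not called, and the points lower in shoots have root levels of 6 or more.

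None of the 32 named members is on the 15 gene lists. A listed locus counts as measured here if a probe set is named for it alone, and 12 lists had at least 1. Most loci had none, and whether any of these is among the 52 unnamed members is not known. In wild-type shoots without Fe, 2.67% of all probe sets were called higher and 2.19% lower. Of 10 measured iron-deficiency regulators 5 were called higher and 0 lower. Of 2 flavonoid genes, DFR and UF3GT, neither was called (limma; 2 higher at an unadjusted p under 0.05), with differences of 0.85 ± 0.29 and 0.85 ± 0.30 (SE; adjusted p = 0.135 and 0.146), beside that of CHIL in the group. Of 6 genes of abscisic acid and dehydration 1 was higher, the late embryogenesis abundant gene AT3G02480, by 5.80 ± 0.28, and that gene was also higher in roots, by 2.30 ± 0.28 (adjusted p = 0.000535), where 2.69% of all probe sets were called higher and 2.50% lower. WRKY53, the single measured senescence gene, had a difference of 0.50 ± 0.30 (adjusted p = 0.391) beside that of SAG29 in the group. Of 3 antioxidant genes 1 was higher, CCS, the copper chaperone of superoxide dismutase and the single measured gene of the copper list, by 0.85 ± 0.16 (adjusted p = 0.0134). GI, the single measured clock gene, was lower, at -1.40 ± 0.15 (adjusted p = 0.000307). Of 2 jasmonate genes and of 2 genes of iron transport none was called (limma; 1 lower and 1 higher at an unadjusted p under 0.05).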

How the data were processed

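The authors deposited RMA output on the log2 scale, per the submitters' processing notes. Its version is not given in the sources used here, and neither is whether both organs were normalised jointly. They run from 1.9 to 13.5, and array medians lie between 5.4 and 5.6. Of 22810 probe sets 22746 were used, without 64 control probe sets. Names come from GEO's platform annotation, possibly outdated, updated through Entrez IDs to the RefSeq table of TAIR10.1: 13513 probe sets have 1 gene, 503 several, and 8730 are not listed. Roles of loci that have no symbol there are general background. All 12 arrays were fitted with a mean per group in limma 3.58.1 (R 4.3.3; eBayes, two-sided, 6 residual degrees of freedom), with Benjamini-Hochberg adjustment over 22746 probe sets and calls at an adjusted p under 0.05. An exact permutation test of 2 against 2 arrays cannot go below p = 0.333, so none was run. The number of arrays limits the precision, and nothing says that replicates came from separate cultures, so p-values measure the spread between these samples.

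Members, lists and the rule for named genes were chosen with earlier results of these data known. The rule took members with 1 gene: the 15 largest shoot differences, the extremes of the irt1 contrasts, the 3 highest levels, those near a threshold, and further members grouped by family after their annotation was seen. Alternatives were a replicate block, left-out arrays, fewer groups, trend and robust eBayes, array weights, a filter on means under 4 and repeated quantile normalisation. A planned search of promoter motifs was not run.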

Additional observations from a re-analysis of the deposited data

Results flagged for a closer look

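The irt1 effect differed between shoots and roots, by the interaction term of the limma model, for 23 members, against 0.870% of all probe sets higher and 1.13% lower. The wild-type arrays with Fe in this term also chose the members, so the count is not independent of the rule, and it ran from 8 to 27 with 1 array left out. The named ones had log2 differences between the effects, shoots minus roots, of 2.15 in AT2G14230, 2.05 in AT1G13610, 2.00 in AT3G21600, 1.35 in AT1G55360, 1.15 in bZIP44, 1.10 in AT1G03020, 1.05 in AT3G03270, 0.90 in AT5G43460 and 0.80 in AT3G51670. AT2G14230, AT3G21600 and AT1G55360 kept this call under every alternative run for them, while of 14 alternatives AT3G51670 lost it under 9, bZIP44 and AT5G43460 under 7, AT1G13610 under 6 and AT3G03270 under 4, and AT1G03020 under 2 of 13. Of the 40 probe sets higher in both wild-type organs without Fe, 13 were called higher and 0 lower in the same term. No group had the 4 arrays needed to look for a single array far from the rest.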

How the results depend on the processing

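No member with 1 gene that was called in an irt1 comparison changed direction under an alternative. Members called, in the order irt1 shoots against wild-type shoots with Fe, irt1 roots against wild-type roots with Fe, the difference of these effects, irt1 shoots against irt1 roots and irt1 shoots against Fe-deficient shoots, numbered 39, 1, 23, 63 and 13, where 3.57%, 3.40%, 2.00%, 52.5% and 0.409% of all probe sets were called. With only the organ or groups compared they numbered 6, 0, 9, 55 and 0 (0.352%, 0.972%, 0.769%, 45.4% and 0% of all probe sets). With 1 array left out they ranged from 20 to 45, at 0, from 8 to 27, from 57 to 63 and from 2 to 13, and the shares of all probe sets from 1.31% to 4.86%, 1.11% to 1.58%, 0.783% to 2.88%, 44.4% to 50.5% and 0.0967% to 0.251%. With the replicate number as a block they numbered 48, 3, 32, 64 and 15 (4.89%, 3.79%, 2.84%, 53.4% and 0.589%); the labels do not say that numbers pair arrays, and the differences between replicates correlated at -0.092 to 0.199 between groups. Array weights gave 4 in irt1 roots, where 6.51% of all probe sets were called. The filter on low means, which tested 72 of the 86 members, gave 8 against Fe-deficient shoots (0.535% of the probe sets tested). The 86 members became 204 and 51 with shoot limits of 0.8 and 1.2, and 66 to 215 with 1 wild-type array left out, of which 56 to 82 were among the 86 for shoot arrays. The causes were not tested. 1 unnamed member has a number between those of mitochondrial probe sets, and 85 remain without it, an alternative chosen after seeing the data. Rounding to 0.1 and low signal limit small differences.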

Other observations

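Of the unnamed members with the largest wild-type shoot differences, 266752_at, at 8.9 to 9.6 on the 6 root arrays, read 5.5 and 5.3 in irt1 shoots. Its log2 difference from wild-type shoots without Fe was -2.25, on arrays that also chose it, so no test is given for it. The other, 246913_at, read 6.5 and 6.1 in irt1 shoots and 6.5 to 7.1 in roots.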
